A study of Mus musculus with 12 samples.

Results

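The genes described here serve the uptake of cobalamin (vitamin B12), folate, biotin, pantothenate, riboflavin, thiamine and vitamin C by the gut. They were chosen by name: Cubn, Amn, Tcn2, Lmbrd1, Slc46a1, Slc19a1, Slc19a3, Slc5a6, Slc52a3 and Slc23a1, and each was read from the brightest probe set that lists exactly 1 symbol. Of these 10 genes, 9 had such a probe set, out of 19938 genes in all, and all 9 were among the 11925 genes tested. No probe set could be named for the thiamine transporter Slc19a3, which is not analysed here. The mice were C57BL/6J males, 4 months old (young) or 21 months old (old), and ate a diet with 10% (low-fat) or 45% (high-fat) of its energy as fat for 2 weeks, after chow and a low-fat run-in that all of them shared. Mucosa with submucosa was scraped from 3 successive segments of the small bowel, proximal, middle and distal, and RNA was hybridized to 12 Affymetrix Mouse Gene 1.0 ST arrays, 1 for each segment, age and diet. RNA of 6 young or 8 old mice was combined on an array, and the same mice gave all 3 segments, which makes 4 pools of mice. The spread between single mice was therefore not measured, and a lower value can mean fewer cells of a type or less RNA per cell, which cannot be told apart in such scrapings.

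Water-soluble vitamins enter the absorptive cell, the enterocyte, through dedicated carriers, and their uptake is divided along the gut. Cobalamin travels bound to intrinsic factor and is taken up mainly in the ileum by a receptor of the proteins cubilin (Cubn) and amnionless (Amn), which anchors cubilin in the membrane and brings it to the cell surface. In the lysosome cobalamin is freed and passed to the cytosol with the help of the membrane protein Lmbrd1, and it leaves for the blood on the carrier transcobalamin (Tcn2). Folate is absorbed mainly in the upper small intestine by the proton-coupled transporter Slc46a1, while the reduced folate carrier Slc19a1 is found in most tissues. Slc5a6 carries biotin and pantothenate, Slc52a3 riboflavin, and Slc23a1 vitamin C, which is no B vitamin and which mice also make themselves.

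The 250 bases upstream of the start of Cubn, Amn and Slc46a1 are shown because the first 2 encode the chains of 1 receptor and rose together from the proximal to the middle segment, while Slc46a1 had the steepest gradient in the opposite direction. They are RefSeq sequences of GRCm38.p6, written 5′ to 3′ on the strand of the gene and ending next to its start: Cubn at chr2:13491877-13492126 on the minus strand, Amn at chr12:111270846-111271095 on the plus strand and Slc46a1 at chr11:78465451-78465700 on the plus strand. Capitals mark matches, on either strand, to motifs of factors of the gut epithelium and of general promoters. The core bound by CDX factors was searched as TTTAT. The motif of GATA factors was searched as AGATAA. For HNF4 the letters were CAAAGTC. For Sp1 they were GGGCGG. The TATA box was searched as TATAAA, which overlaps the CDX core.
Cubn: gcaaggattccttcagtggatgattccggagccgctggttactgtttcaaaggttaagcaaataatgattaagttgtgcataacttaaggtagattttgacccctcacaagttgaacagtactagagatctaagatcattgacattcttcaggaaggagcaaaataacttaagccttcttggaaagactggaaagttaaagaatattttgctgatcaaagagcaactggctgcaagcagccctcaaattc
Amn: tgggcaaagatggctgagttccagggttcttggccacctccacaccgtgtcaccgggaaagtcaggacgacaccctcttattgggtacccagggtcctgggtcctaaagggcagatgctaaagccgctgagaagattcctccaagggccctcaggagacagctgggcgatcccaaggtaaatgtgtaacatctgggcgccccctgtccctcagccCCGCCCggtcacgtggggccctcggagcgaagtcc
Slc46a1: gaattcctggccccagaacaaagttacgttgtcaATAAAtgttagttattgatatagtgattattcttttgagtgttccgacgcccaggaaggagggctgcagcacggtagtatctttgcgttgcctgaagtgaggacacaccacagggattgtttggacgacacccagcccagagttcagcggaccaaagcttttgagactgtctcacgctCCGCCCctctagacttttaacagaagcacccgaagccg
The Cubn sequence held none of these letters, at a GC content of 39.6%, where the median of 32851 promoter sequences was 52.4%. The Amn sequence had a GC content of 61.2% and 1 match to GGGCGG, 35 bases before the start. The Slc46a1 sequence had 49.6% GC, 1 match to TTTAT starting 216 bases before the start and 1 to GGGCGG 38 bases before it. Of all promoter sequences of this length, 37.3% held the CDX core, 9.99% the GATA motif, 3.84% the HNF4 motif, 32.7% the Sp1 motif and 12.4% the TATA box, so neither kind of match is rare. Of the other genes, Lmbrd1, Slc19a1, Slc5a6 and Slc19a3 had promoter entries too.

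All values are log2 intensities after Robust Multi-array Average normalization (RMA) by the authors, and a difference of 1 is 2-fold. Enterocyte markers (15 genes, among them Vil1, Fabp2 and Sis) had medians of 12.38 to 12.63 on the 12 arrays. Within the age and diet pairs of a segment they differed little (medians of −0.06 to 0.03). The summed intensity of 7 genes of the ileum, among them Fabp6 and Slc10a2, was 2377 to 2623 in the proximal, 3658 to 7280 in the middle segment and 19474 to 20579 distally. The summed intensity of pancreatic acinar genes was 43460 to 106028 on the proximal arrays and 1907 to 3033 elsewhere, where Pnliprp2 (9.28 to 9.94) and Clps (8.66 to 9.69) were still bright, and these genes were removed before testing. Differences were tested with limma over all 11925 genes, and those with a Benjamini-Hochberg adjusted p under 0.05 passed. Between segments the enterocyte markers were not even. In the distal against the proximal segment 10 of the 15 passed as higher and 2 as lower (median 0.24), where 54.8% of all genes passed.

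Most uptake genes differed between segments. From the proximal to the middle segment 4 of the 9 genes rose (Cubn, Amn, Slc52a3 and Slc23a1) and 2 fell (Slc46a1 and Slc19a1), 6 in all, where 25.0% of all genes passed. From the middle to the distal segment 3 rose (Cubn, Slc5a6 and Slc52a3) and 5 fell (Tcn2, Lmbrd1, Slc46a1, Slc19a1 and Slc23a1), against 34.6% of all genes. Between the distal and the proximal segment all 9 differed, 4 higher and 5 lower in the distal segment, where 54.8% of all genes passed. The median difference of the 9 genes was −0.27 in that comparison and that of all genes 0.02. In the same comparison 13 of 14 smooth muscle and 7 of 7 B cell markers passed as higher. Of 12 macrophage and myeloid markers 8 were lower and 2 higher, and of 11 endothelial markers 5 were lower. Of 13 fibroblast markers 2 were higher and 2 lower. The part of these lists, and of the acinar genes on the proximal arrays, in the segment differences was not tested.

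**Figure D1:**
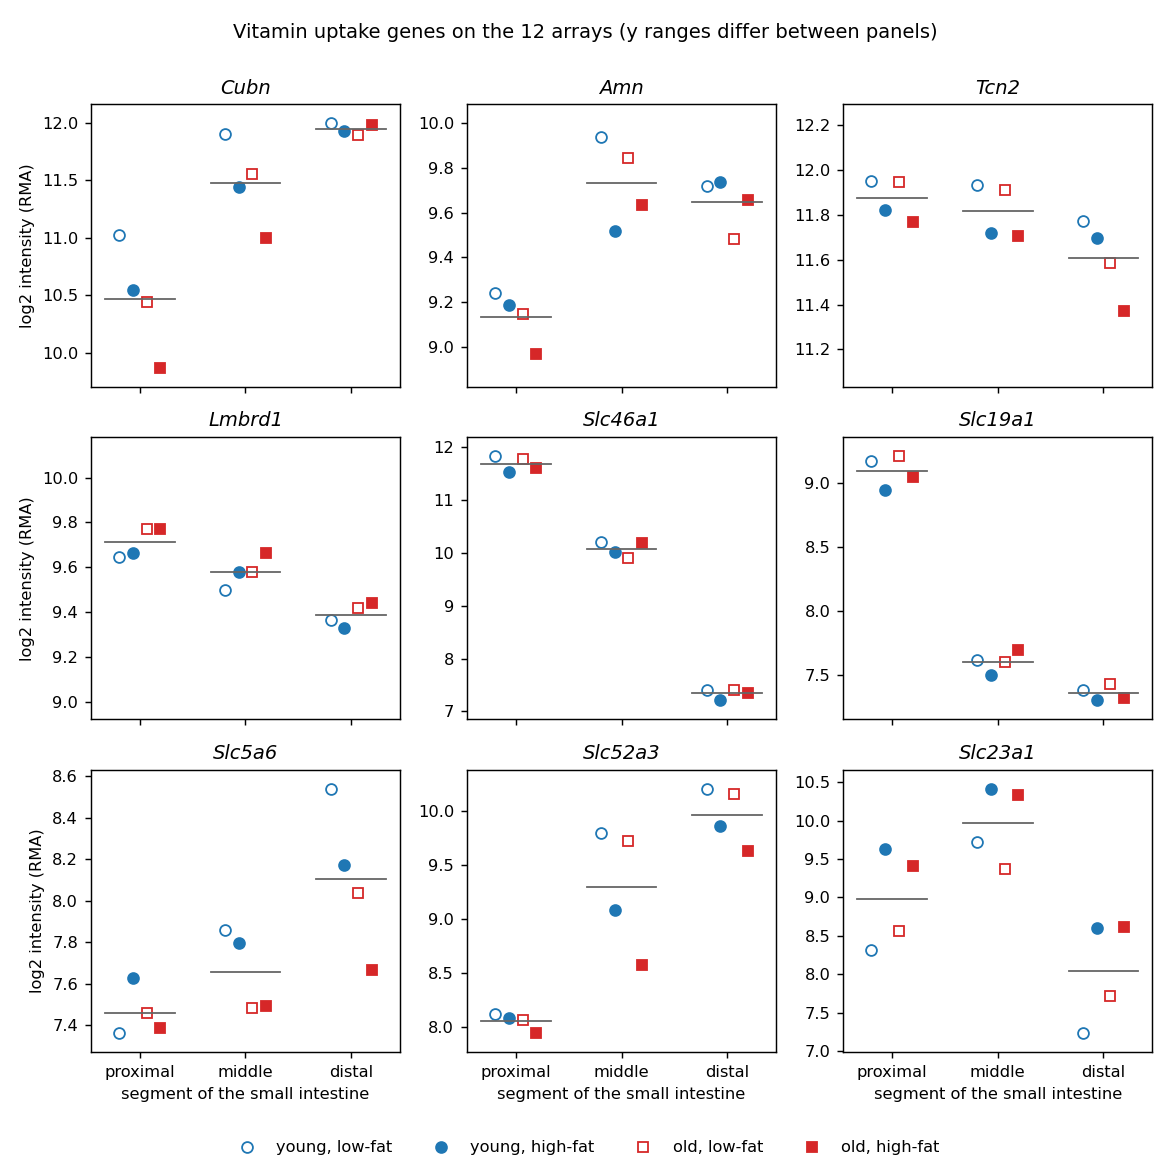
Log2 intensity (y axis, a separate range in each panel) of the 9 vitamin uptake genes in the proximal, middle and distal small intestine (x axis), with 1 point per array and the mean of the 4 arrays of a segment as a grey line. Cubn and Slc52a3 climb towards the distal end, Slc46a1 and Slc19a1 descend, and Slc23a1 peaks in the middle, with the high-fat arrays (filled) above the low-fat arrays (open) in every segment.

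Cubn, the receptor chain that binds the intrinsic factor-cobalamin complex, climbed along the gut. In the proximal segment it read 11.02 (young, low-fat), 10.55 (young, high-fat), 10.44 (old, low-fat) and 9.87 (old, high-fat). In the same order it read 11.90, 11.44, 11.55 and 10.997 in the middle segment, and 12.00, 11.93, 11.89 and 11.98 in the distal segment. The 4 distal arrays thus lay within a narrow band (SD 0.05), while the proximal (SD 0.47) and middle arrays (SD 0.37) were spread, and the lowest middle value lay just below the highest proximal one. The middle segment was higher than the proximal one by 1.00 (SE 0.14, adjusted p = 0.000786) and the distal higher than the middle one by 0.48 (SE 0.14, adjusted p = 0.0277). The latter call was lost when any of 5 arrays (middle old low-fat, middle old high-fat, middle young high-fat, distal old low-fat or distal young high-fat) or the old low-fat or young high-fat pool was left out, with differences of 0.41 to 0.52 and adjusted p of 0.0509 to 0.0971.

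Amn, the membrane anchor of cubilin, rose over the first step, with no difference that passed over the second. It read 9.24, 9.19, 9.15 and 8.97 in the proximal segment, 9.94, 9.52, 9.84 and 9.63 in the middle segment and 9.72, 9.74, 9.48 and 9.66 distally, in the order young low-fat, young high-fat, old low-fat and old high-fat. The proximal arrays did not overlap with the others, and the middle segment was higher by 0.60 (SE 0.09, adjusted p = 0.000961). The middle and distal arrays overlapped, with a difference of −0.08 (SE 0.09, adjusted p = 0.483). Over the 12 arrays the Pearson correlation of Cubn and Amn was 0.86, a description over 3 segments of 4 shared pools.

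Tcn2, which carries cobalamin in blood, and Lmbrd1, which serves its exit from the lysosome, varied over narrow ranges (SD 0.17 and 0.15 over the 12 arrays). Tcn2 ranged from 11.77 to 11.95 in the proximal, 11.70 to 11.94 in the middle segment and 11.37 to 11.77 distally, where its difference from the middle segment was −0.21 (SE 0.06, adjusted p = 0.0272). After quantile normalization of the genes kept this difference was −0.04 (adjusted p = 0.677), and that between the distal and proximal segment changed from −0.27 (adjusted p = 0.00503) to −0.06 (adjusted p = 0.455). Without any single of 5 arrays (both old middle arrays, the young low-fat middle array and both old distal arrays) or of 3 pools (both old pools and the young low-fat pool) the step from middle to distal no longer passed, at −0.23 to −0.17. Lmbrd1 fell from 9.65 to 9.77 in the proximal over 9.50 to 9.66 in the middle to 9.33 to 9.44 in the distal segment, with ranges of the distal and the other arrays that did not overlap. Its distal values differed from the middle ones by −0.19 (SE 0.05, adjusted p = 0.0117) and from the proximal ones by −0.33 (SE 0.05, adjusted p = 0.000237). After quantile normalization (−0.12, adjusted p = 0.0805), or without the old low-fat pool (−0.20, adjusted p = 0.0598) or the young high-fat pool (−0.17, adjusted p = 0.0776), the first of these differences no longer passed.

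Slc46a1, the intestinal folate transporter, had the widest range of the 9 genes. It read 11.83, 11.53, 11.77 and 11.61 in the proximal segment (young low-fat, young high-fat, old low-fat, old high-fat), 10.20, 10.01, 9.91 and 10.19 in the middle segment and 7.41, 7.21, 7.41 and 7.35 distally. No arrays of different segments overlapped. The middle segment was 3.05-fold lower than the proximal one (log2 difference −1.61, SE 0.07, adjusted p = 5.75e-07), the distal 6.64-fold lower than the middle one (−2.73, SE 0.07, adjusted p = 1.89e-08), and the whole gradient came to 20.3-fold (−4.34, SE 0.07, adjusted p = 1.76e-10).

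Slc19a1, the reduced folate carrier, was set apart in the proximal segment. It read 9.17, 8.95, 9.21 and 9.05 there, 7.62, 7.51, 7.60 and 7.70 in the middle segment and 7.39, 7.31, 7.43 and 7.32 distally, in the same order. It was 2.81-fold lower in the middle than in the proximal segment (−1.49, SE 0.06, adjusted p = 1.89e-07) and a little lower again in the distal segment (−0.24, SE 0.06, adjusted p = 0.00866). A second probe set of the gene also fell from the proximal (7.48 to 7.88) to the middle segment (6.37 to 6.80), but read 6.60 to 6.97 in the distal segment. With the mean of both probe sets the step from middle to distal was −0.04 (adjusted p = 0.570).

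Slc5a6, the carrier of biotin and pantothenate, was higher towards the distal end, with 7.36, 7.63, 7.46 and 7.39 in the proximal segment, 7.86, 7.80, 7.48 and 7.49 in the middle segment and 8.54, 8.17, 8.04 and 7.67 distally. The proximal and middle arrays overlapped (difference 0.20, SE 0.12, adjusted p = 0.250), and so did the middle and distal arrays, although the latter were higher by 0.44 (SE 0.12, adjusted p = 0.0146). That call was lost without the middle old low-fat array (0.40, adjusted p = 0.0575), the old low-fat pool (0.41, adjusted p = 0.0835) or the young high-fat pool (0.47, adjusted p = 0.0535).

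Slc52a3, the riboflavin transporter, read 8.12, 8.08, 8.06 and 7.94 in the proximal segment, 9.80, 9.08, 9.72 and 8.57 in the middle segment and 10.21, 9.87, 10.16 and 9.63 distally, so that every proximal array lay below all others. The first step was 1.24 (SE 0.15, adjusted p = 0.000256), the second 0.67 (SE 0.15, adjusted p = 0.00609). In the middle and distal segments the arrays of the high-fat diet were the low ones.

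Slc23a1, the vitamin C transporter of absorptive epithelia, peaked in the middle segment. It read 8.31, 9.63, 8.57 and 9.41 in the proximal segment, 9.72, 10.42, 9.38 and 10.34 in the middle segment and 7.24, 8.60, 7.73 and 8.62 distally. The middle segment was 1.97-fold higher than the proximal (0.98, SE 0.12, adjusted p = 0.000296) and 3.78-fold higher than the distal segment (−1.92 for distal minus middle, SE 0.12, adjusted p = 2.55e-06). Within each segment both high-fat values lay above both low-fat values.

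The high-fat diet was then compared with the low-fat diet. With 1 array per segment, age and diet, the young and the old pair of a segment served as repeats, and all pairs of a gene share 4 pools. Slc23a1 rose with the high-fat diet in every segment, and it was the only one of the 9 genes that passed in the proximal segment, where 0.319% of all genes passed, and in the distal segment, where 0.528% did. In the middle segment Slc23a1 rose and Cubn and Slc52a3 fell, 3 of 9 genes against 2.55% of all genes. Over the means of the 3 segments of each pool Slc23a1 rose and Cubn and Slc52a3 fell, 3 of 9 against 5.68%.

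**Figure D2:**
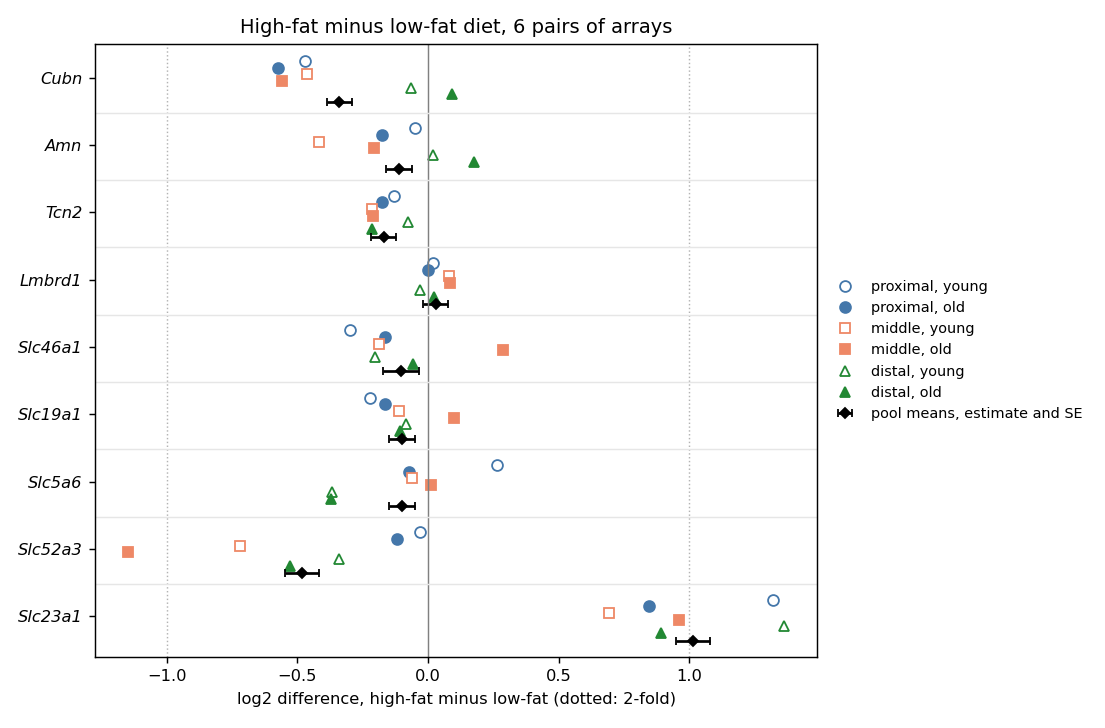
Log2 difference, high-fat minus low-fat diet (x axis), of the 9 genes (y axis) in the young (open) and old (filled) pair of each segment, with the limma estimate and its SE over the pool means in black and dotted lines at 2-fold. All 6 pairs of Slc23a1 lie between 0.69 and 1.36, the 4 proximal and middle pairs of Cubn between −0.57 and −0.46, and the middle pairs of Slc52a3 at −0.72 and −1.15.

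Slc23a1 was higher on the high-fat diet in 6 of 6 pairs. The young pair differed by 1.32 in the proximal, 0.69 in the middle segment and 1.36 distally, the old pair by 0.85, 0.96 and 0.89. The fitted difference was 1.08 in the proximal (SE 0.15, adjusted p = 0.0414), 0.83 in the middle (SE 0.15, adjusted p = 0.0368) and 1.13 in the distal segment (SE 0.15, adjusted p = 0.0320), and 1.01 over the pool means (SE 0.06, adjusted p = 0.000730). Each of the 3 calls within a segment rests on both pairs: without an array of that segment the pair left gave 0.69 to 1.36 with adjusted p of 0.0600 to 0.556. The proximal and distal calls were also lost without any middle array (adjusted p = 0.103 and 0.0774), which leaves these estimates unchanged and alters the shared error. The proximal call was further lost with the 4 proximal arrays fitted alone (adjusted p = 0.126), and the proximal and middle calls without the intensity filter (adjusted p = 0.0546 and 0.0639). The acinar genes, which sit on the proximal arrays, were also higher on the high-fat diet there (sums of 106028 against 43460 in young and 69098 against 52921 in old mice). Their part in the proximal difference of Slc23a1 was not tested. In the distal segment 6 of 9 genes typical of the proximal gut, among them Fabp1 and Apoa4, were higher on the high-fat diet in each age, with medians of 0.19 in young and 0.28 in old mice. The part of that list in the distal difference of Slc23a1 was not tested.

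Slc52a3 was lower on the high-fat diet in 6 of 6 pairs, with differences of −0.03 (young) and −0.12 (old) in the proximal segment, −0.72 and −1.15 in the middle segment and −0.34 and −0.53 distally. It fell by 0.93 in the middle segment (SE 0.11, adjusted p = 0.00782), while the distal difference of −0.44 (SE 0.11, adjusted p = 0.145, or 0.0229 with an intensity trend and robust variance) and the proximal one of −0.08 (SE 0.11, adjusted p = 0.866) did not pass. Without either old middle array the middle call was lost, and the difference was that of the young pair, −0.72. Without either young middle array the difference was that of the old pair, −1.15. Each of these fits leaves 1 complete pair in the middle segment, so that its error comes from outside that segment. Over the pool means Slc52a3 fell by 0.48 (SE 0.07, adjusted p = 0.0133), and without the middle segment the difference was −0.26 (adjusted p = 0.137). It was also lost without the young low-fat (−0.40, adjusted p = 0.0691) or young high-fat middle array (−0.44, adjusted p = 0.0650).

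Cubn was lower on the high-fat diet in the proximal and middle segment, with differences of −0.47 (young) and −0.57 (old) and of −0.46 and −0.56, and differed by −0.07 and 0.09 in the distal segment. It fell by 0.51 in the middle segment (SE 0.08, adjusted p = 0.0218), while the proximal difference of −0.52 (SE 0.08, adjusted p = 0.0557) missed the threshold and passed with an intensity trend and robust variance (adjusted p = 0.000277). Without an array of the middle segment the pair left gave −0.46 (adjusted p = 0.444) or −0.56 (adjusted p = 0.169), and without the intensity filter the middle call was lost (adjusted p = 0.0512). Over the pool means Cubn fell by 0.34 (SE 0.05, adjusted p = 0.0139). That call was lost without the proximal old high-fat (−0.26, adjusted p = 0.0897), middle old low-fat (−0.31, adjusted p = 0.0672) or middle old high-fat array (−0.30, adjusted p = 0.0505), and without the middle (−0.25, adjusted p = 0.116) or proximal segment (−0.25, adjusted p = 0.0507), and without the intensity filter (adjusted p = 0.0559). The 7 ileal genes had medians of 0.09 in the young and −0.11 in the old middle pair, with 6 of 7 higher in the young pair. Their part in the difference of Cubn was not tested.

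Whether the response to diet differed between segments was tested with an F test over the 3 segments. None of the 9 genes passed, where 0.126% of all genes did. An unadjusted p under 0.05 was found for 4 of the 9 and for 1291 of all 11925 genes. Cubn (adjusted p = 0.244) and Slc52a3 (adjusted p = 0.244) came nearest. With an intensity trend and robust variance 2 of the 9 genes passed, and 138 of all genes.

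The other 6 genes did not pass with diet. Tcn2 was lower on the high-fat diet in 6 of 6 pairs, with differences of −0.22 to −0.08, and the difference of −0.17 over the pool means did not pass (SE 0.05, adjusted p = 0.0991). Amn was lower in the proximal and middle pairs (−0.42 to −0.05) and not in the distal ones (0.02 and 0.18), and its middle difference of −0.31 (SE 0.09, adjusted p = 0.116) did not pass. Slc5a6 differed by −0.37 in both distal pairs (SE 0.09, adjusted p = 0.141). Slc46a1 differed by −0.30 to 0.29, Slc19a1 by −0.22 to 0.10 and Lmbrd1 by −0.03 to 0.08, and none of these passed in any segment or over the pool means. With an intensity trend and robust variance Tcn2 passed over the pool means (adjusted p = 0.00557) and in the middle segment (−0.21, adjusted p = 0.0192), Amn in the middle segment (adjusted p = 0.0195) and Slc5a6 in the distal segment (adjusted p = 0.0475).

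The comparison of old with young mice asks whether vitamin uptake genes change with age, with the low-fat and the high-fat pair of a segment as repeats. None of the 9 genes passed within a segment. The share of all genes that passed was 0.109% in the proximal, 0.0252% in the middle segment and 0.646% distally. In the same order, 1, 3 and 2 of the 9 genes had an unadjusted p under 0.05. So did 1032, 1049 and 2261 of all 11925 genes. Over the pool means Cubn and Slc5a6 fell, 2 of 9 genes against 2.88% of all genes.

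**Figure D3:**
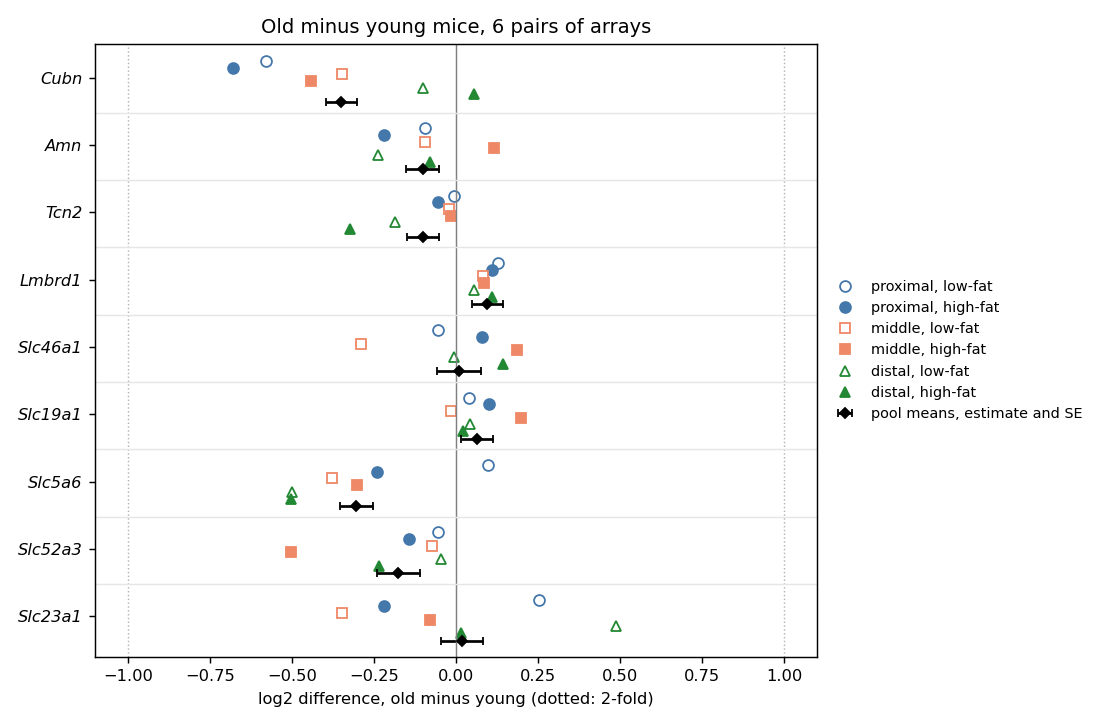
Log2 difference, old minus young mice (x axis), of the 9 genes (y axis) in the low-fat (open) and high-fat (filled) pair of each segment, with the limma estimate and its SE over the pool means in black and dotted lines at 2-fold. The proximal and middle pairs of Cubn lie between −0.68 and −0.35 and its distal pairs near 0, while the distal pairs of Slc5a6 are both at −0.50.

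Cubn was lower in old mice, at −0.58 (low-fat) and −0.68 (high-fat) in the proximal segment and at −0.35 and −0.44 in the middle segment, and differed by −0.10 and 0.06 in the distal segment. The proximal difference of −0.63 (SE 0.08, adjusted p = 0.0544) missed the threshold, the middle one was −0.40 (SE 0.08, adjusted p = 0.278) and the distal one −0.02 (SE 0.08, adjusted p = 0.896). The proximal and middle differences passed with an intensity trend and robust variance (adjusted p = 0.000257 and 0.00972). Over the pool means Cubn fell by 0.35 (SE 0.05, adjusted p = 0.0167). That call was lost without any of 6 arrays (the young low-fat and both old arrays of the proximal segment, both old arrays of the middle segment and the distal young high-fat array), at −0.38 to −0.26, and without the proximal (−0.21, adjusted p = 0.141) or the middle segment (−0.33, adjusted p = 0.0604), and without the intensity filter (adjusted p = 0.0644). In the middle segment 5 of 7 ileal genes were lower in old mice on each diet, with medians of −0.21 (low-fat) and −0.30 (high-fat), and in the proximal segment the medians were −0.17 and −0.03. Their part in the difference of Cubn was not tested.

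Slc5a6 was lower in old mice, at −0.38 and −0.30 in the middle and −0.50 on both diets in the distal segment, and differed by 0.10 and −0.24 in the proximal segment. In the distal segment both old values lay below both young ones (difference −0.50, SE 0.09, adjusted p = 0.0813), and this difference passed with an intensity trend and robust variance (adjusted p = 0.0135). Over the pool means it fell by 0.30 (SE 0.05, adjusted p = 0.0315). Any of 9 arrays, all but the young proximal arrays and the distal old low-fat array, undid this call when left out, at −0.36 to −0.22, as did the middle (−0.29, adjusted p = 0.119) or distal segment (−0.21, adjusted p = 0.252), and the fit without the intensity filter (adjusted p = 0.105). Smooth muscle markers fell with age on the same arrays, 10 of 14 in the distal segment and 11 of 14 over the pool means (medians −0.995 and −0.674). Of all genes 0.646% and 2.88% passed in these comparisons. The sums of the smooth muscle markers were 5269 to 7089 in young and 2508 to 3865 in old distal segments. Over the pool means 11 of 13 fibroblast, 6 of 11 endothelial and 3 of 12 macrophage and myeloid markers fell as well. None of the 15 enterocyte and 7 B cell markers passed there. The part of these lists in the differences of Slc5a6 and Cubn was not tested.

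Tcn2 was lower in old mice in the distal segment, with differences of −0.19 and −0.32 (difference −0.26, SE 0.07, adjusted p = 0.163, or 0.0162 with an intensity trend and robust variance), and differed by −0.05 to −0.01 elsewhere. Slc52a3 was lower in 6 of 6 pairs, with differences of −0.50 to −0.05, and Lmbrd1 higher in 6 of 6, by 0.05 to 0.13, with neither passing. Slc23a1 (−0.35 to 0.49), Amn (−0.24 to 0.11), Slc19a1 (−0.02 to 0.20) and Slc46a1 (−0.29 to 0.18) had pairs of both signs. The F test for an age difference that varies between segments found 0 of the 9 genes, and 0% of all genes. An unadjusted p under 0.05 was found for 2 of the 9 (Cubn and Slc5a6) and for 1037 of all 11925 genes. With an intensity trend and robust variance 1 of the 9 passed, and 20 of all genes.

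The study's methods used a 2-fold difference between single arrays, with probe sets defined by Entrez ID, whereas Affymetrix transcript clusters were read here. By that threshold no uptake gene differed with age in any pair of these small intestine arrays. Of all genes 1.06% did in at least 1 of 6 pairs. With diet 2 of the 9 genes did, against 1.48% of all genes: Slc23a1 in the young proximal and young distal pair and Slc52a3 in the old middle pair. A pair of single arrays has no replicate check.

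Other genes that handle these vitamins were read from 6 lists, of which 72 genes were tested. Of these, 22 were higher and 25 lower in the distal than in the proximal segment, 65.3% of the list against 54.8% of all genes. Among carriers, Slc5a8, which transports nicotinate and short-chain fatty acids, was higher by 5.47 (SE 0.31), the thiamine pyrophosphate transporter Slc44a4 was higher by 1.08 (SE 0.06), and the thiamine transporter Slc19a2 differed by −1.42 (SE 0.09). Of the vitamin C list the second transporter Slc23a2 differed by −1.85 (SE 0.09) and Slc2a2, which carries glucose and dehydroascorbate, by −3.33 (SE 0.12). Of the folate list, the purine synthesis enzymes Atic (1.17) and Gart (1.00) and the one-carbon enzyme Mthfd1 (0.98) were higher, and the folate hydrolase Ggh was lower (−1.06). Of the cobalamin list, Mtrr, which reactivates methionine synthase, was higher by 0.66 (SE 0.08) and Mmaa, a chaperone of mitochondrial cobalamin, differed by −0.53 (SE 0.09), and Cblif (intrinsic factor) and Lrp2 (megalin) did not pass the intensity filter.

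With the high-fat diet 5 of these 72 genes rose and 4 fell in the middle segment (12.5%, against 2.55% of all genes), 1 fell in the distal segment (Slc2a2, −0.83, SE 0.07, adjusted p = 0.00666) and none passed in the proximal segment. Over the pool means 6 rose and 6 fell (16.7%, against 5.68% of all genes). Slc23a2 rose by 0.54 in the middle segment (SE 0.08, adjusted p = 0.0160) and 0.34 over the pool means (SE 0.05, adjusted p = 0.0158). Unlike Slc23a1, it passed in neither the proximal nor the distal segment. Slc2a2 of the same list fell in the middle segment (−0.66, SE 0.07, adjusted p = 0.00521) and over the pool means (−0.54, SE 0.05, adjusted p = 0.00251). In both comparisons 2 of the 7 genes of this list rose and 1 fell. The folate list held a rise of the efflux pump Abcc3 (0.89 in the middle segment, SE 0.10) and a fall of the folate enzyme Aldh1l1 (−0.67, SE 0.07). The riboflavin kinase Rfk fell over the pool means by 0.25 (SE 0.05), as did Slc44a4 by 0.32 (SE 0.06). None of the 13 other cobalamin genes passed with diet over the pool means. With age 0 of the 72 passed in any segment and 1 over the pool means, Slc5a8, which fell by 0.48 (SE 0.09, adjusted p = 0.0414). Its age difference was −1.22 in the proximal, −0.26 in the middle segment and 0.04 distally, and in the proximal segment, where it was dim, it read 5.24 and 5.87 in old and 5.86 and 7.70 in young mice on the low-fat and high-fat diet, so that the young high-fat array stood apart.

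**Figure D4:**
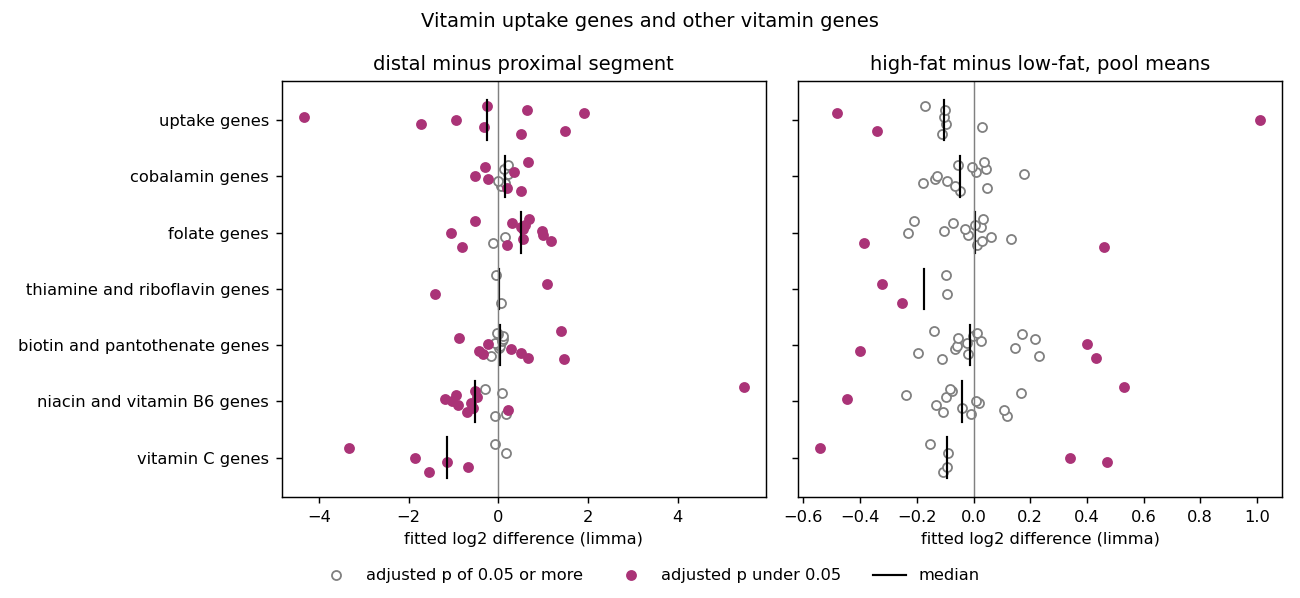
Fitted log2 differences (x axis) between the distal and proximal segment (left) and between the high-fat and low-fat diet over the pool means (right) for the 9 uptake genes and the 6 lists of other vitamin genes (y axis), with 1 point per gene, filled where the adjusted p is under 0.05, and the median as a line. Slc5a8 stands alone at 5.47 and Slc46a1 at −4.34 on the left, and Slc23a1 at 1.01 on the right.

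Genes whose pattern over the 12 arrays was most like that of an uptake gene were ranked by Pearson correlation, as a description in which segments carry most of the variation. For Cubn they were Tle3 and Papss1 (r = 0.98), Ptk6 and Ocm (r = 0.97) and Gas2l3 (r = 0.97), and within segments r was 0.84 to 0.95. For Slc46a1 they were Chpt1, Scoc, St3gal6, Ak3 and Slc41a2, at 0.995 to 0.998 over all arrays and 0.45 to 0.68 within segments. For Slc23a1 they were Slc5a12 (0.96), Slc5a4b (0.96), Dnase1 (0.95), Nr1h3 (0.93) and Galnt6 (0.92), with 0.75 to 0.93 within segments. Among the uptake genes themselves Cubn was closest to Slc52a3 (r = 0.93) and most opposed to Lmbrd1 (r = −0.92).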

How the data were processed

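Pooled RNA of mucosal scrapings was measured on 12 arrays. The deposited values are on a log2 scale, computed by the authors with RMA (version not given in the sources used here) over the small intestine arrays, hybridized in 1 experiment; probe sets are Affymetrix transcript clusters. They run from 1.8 to 14.49, with array medians of 5.57 to 5.70. Because quantile normalization within RMA equalizes the arrays, a shift of most genes would not show. The labels give 2 weeks of low-fat run-in after chow; the study's methods give other lengths. Of 35556 probe sets, 21789 list 1 gene symbol in the platform annotation, 1621 several and 12146 none.

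Genes were tested if 1 array or more read over 50 on the linear scale, as in the study's methods, and 23 acinar genes were removed. limma 3.58.1 (R 4.3.3, statmod 1.5.0) was fitted in 3 ways: segments with the pool as a block (6 residual degrees of freedom), age and diet within segments (3 residual degrees of freedom, prior SD 0.0876) and pool means (1 residual degree of freedom, prior SD 0.0511). In the second fit arrays were taken as independent. The correlation within pools was −0.08, estimated only from what age and diet left unexplained in each segment. Differences between pools that lie along age or diet do not enter it. Since low-fat and high-fat pairs are the repeats for age, and young and old pairs for diet, any age-by-diet interaction counts as error. The p-values do not measure the spread between mice, nor that between like pools, since no group had a replicate pool. They rest on what each fit left unexplained, combined with a prior spread estimated over all genes. For the pool means this prior had 5.65 degrees of freedom, against 1 residual degree of freedom of the gene itself. The number of arrays limits the precision. Fits were tested on simulated data. Python 3.11.15 with pandas 2.3.3 and numpy 2.4.6 did the rest.

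The genes and lists were chosen with earlier results of these data known. All uptake genes are named. Of the other vitamin lists, at most the 4 genes of each with the largest difference among those that pass were eligible; Cblif and Lrp2 were chosen after their values were seen, as was the second probe set of Slc19a1. For Cubn, Slc46a1 and Slc23a1 the 5 genes of highest correlation are given. Alternatives were no intensity filter, acinar genes kept, median centring, quantile normalization, the mean of probe sets, an intensity trend with robust variance, a random pool block, a segment alone, other segment fits, a 1.5-fold threshold, and each array, pool or segment left out.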

Additional observations from a re-analysis of the deposited data

Results flagged for a closer look

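Slc46a1, the folate transporter, differed with age in opposite directions on the 2 diets. On the low-fat diet old mice were lower in all 3 segments (proximal −0.0562, middle −0.29, distal −0.01, median −0.0562), and on the high-fat diet they were higher in all 3 (0.08, 0.18 and 0.1434, median 0.1434). The difference was not tested, since 1 pool of mice per age and diet leaves no repeat for it, and the 3 segments of a pool share mice. Both proximal values and the low-fat distal value were smaller than the SE of the fitted age difference (0.12 in each segment).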

How the results depend on the processing

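Of 99 differences of uptake genes tested, 33 passed. Over the 2079 values these took under alternatives, 0 reversed a call, 85 were weaker and 13 stronger. Another 85 values, of differences that passed in neither setting, moved by at least the SE, and 1 difference can count under several alternatives. With an intensity trend and robust variance the number of uptake genes that passed rose with age from 0 to 1 in the proximal, 0 to 1 in the middle segment and 0 to 2 distally, with diet from 1 to 2, 3 to 5 and 1 to 3, and in the F tests from 0 to 1 (age) and 0 to 2 (diet). The number over all genes rose as well, in the same order of segments, with age from 13 to 77, 3 to 30 and 77 to 451. With diet it rose from 38 to 235, 304 to 859 and 63 to 435, and in the F tests from 0 to 20 (age) and 15 to 138 (diet). Without the intensity filter, which tests more genes, the number of uptake genes that passed was 0 (proximal) and 1 (middle segment) for diet and 0 for age over the pool means. With a segment alone it was 0 for diet in the proximal segment. Pool means without the proximal, middle or distal segment left 1, 0 and 1 with age, and 1 with diet without the middle segment. Leaving out 1 array or pool gave 4 to 8 genes for distal against middle, 0 to 1 for diet in the proximal, 0 to 3 in the middle segment and 0 to 1 distally, and 0 to 2 for age over the pool means. At 1.5-fold 1 uptake gene, Cubn, differed with age in at least 1 pair, where 768 of all 11925 genes did. Counts over all genes moved too: from 77 to between 1 and 451 for age in the distal segment, from 304 to between 27 and 859 for diet in the middle segment, from 343 to between 49 and 700 for age and from 677 to between 121 and 1426 for diet over the pool means. The cause was not tested. The segments were compared with the pool as a block. For age and diet the 2 arrays of a pair came from different mice, and each group has 1 array, so no group had a replicate pool.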
